A study of Saccharomyces cerevisiae with 16 samples.

Results

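The ribosome assembly genes described here are the 65 budding yeast genes whose standard name is UTP, NOP, NOC, NSA, ENP, ESF, RRP, RLP or NUG followed by a number. Membership goes by the name and not by a threshold on any measured value. They are 65 of 7126 features in the RNA tables and 65 of 6696 in the 1 h footprint tables, whereas the 8 h footprint tables held 64 of them among 5647 features. NOP58 was the one not listed there, and its 8 h footprints were not analysed here. By prefix they comprised 18 UTP, 18 RRP, 17 NOP, 3 NOC, 2 ENP, 2 ESF, 2 NSA, 2 RLP genes and 1 NUG gene.

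The study depleted eIF4E, the protein that binds the mRNA cap at the start of translation, through an auxin-inducible degron (AID) on its C-terminus in the haploid strain BY4742, and measured mRNA by RNA-seq and ribosome-protected footprints by ribosome profiling. Each assay had 2 replicates of 4 groups, which were 1 h of 500 µM IAA (the auxin) against 1 h of DMSO (its solvent) and 8 h of IAA against 8 h of DMSO, all grown in YPD, for 16 libraries in all. Every group carried the degron, so a comparison of IAA with DMSO shows auxin and eIF4E loss together, and untagged cells given auxin were not analysed here. The labels call the replicates biological without saying that they were separate cultures, so the p-values measure the spread between these libraries.

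The 1 h and 8 h libraries were made differently. Poly(A) selection was used for the 1 h RNA and rRNA depletion for the 8 h RNA, and the footprints were circularised with CircLigase II at 1 h but with CircLigase I at 8 h, after another reverse transcription primer and subtractive hybridisation. Time and protocol therefore cannot be told apart. Total counts ran from 10182227 to 50294053 in RNA libraries and from 1766499 to 9985060 in footprint libraries, and the shallowest was the first DMSO footprint library at 8 h, with 7934 counts over the 64 genes. The deleted markers URA3, LYS2, LEU2 and HIS3 had 0 footprints and no more than 37 RNA counts in any library, and the alpha-cell genes SAG1, STE3 and MF(ALPHA)1 had at least 3186, 3384 and 8311 RNA counts in each. The mRNA of eIF4E (CDC33) had 21928 to 27691 counts at 1 h and 5954 to 12603 counts at 8 h, which does not report on the protein that the degron removes.

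A ribosome begins as one long precursor rRNA made by RNA polymerase I in the nucleolus. Many of the proteins encoded by these genes join it while it is still being made. The UTP complexes A, B and C, together with the U3 snoRNP, form the small subunit processome around the future 18S rRNA. NOC2, NOC3 and the NSA, NUG and many NOP and RRP proteins build the large subunit around the 25S and 5.8S rRNA. Small nucleolar ribonucleoproteins (snoRNPs) carry the enzymes that modify the rRNA, and the exosome, which several RRP genes encode, trims and destroys RNA from its 3′ end. In yeast these genes are known as one regulon, whose promoters often carry the PAC element, bound by the repressors Dot6 and Tod6, and the RRPE element, bound by Stb3.

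Those promoter elements were present in most, but not all, of the genes described here. Their names do not fix this, but the regulon is already known by these elements, so the matches describe it and are no separate finding. In the 250 bases before the start codon (RefSeq genome, build R64, both strands searched), the PAC core GATGAG was present in 53 of 65 genes (81.5%), against 17% of 6001 protein-coding genes. The longer form GCGATGAG, which contains that core, was present in 26 of 65 (40%) against 3.83%. The RRPE core AAAATTTT, which reads the same on both strands, was present in 41 of 65 (63.1%) against 8.65%, and 35 of 65 (53.8%) held both cores against 4.08%. Among the role groups, the PAC core was in 0 of 2 UtpC promoters, 3 of 7 exosome promoters and 4 of 6 UtpA promoters, and in 88.9% to 100% of the promoters of each other group. The RRPE core was in 1 of 7 exosome promoters and 1 of 2 UtpC promoters, and neither group had a promoter with both. A match describes the letters only and shows no binding.

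The following 30-base windows show these elements in some of the genes described below. Each is written 5′ to 3′ on the strand of its gene with the matched element in capitals.
UTP10: attttcagttaGCGATGAGctagatatttt
UTP14: aaattcctatgGCGATGAGctgaaaaaatt
NUG1: tttcgagcgagGCGATGAGatgagctaatt
RRP8: tgaaaaattttGCGATGAGctcaaaataag
RRP4: gtatggattgaGCGATGAGgtgaaaaaaaa
RRP5: attttaagatgaGATGAGctaaacccttct
NOC2: ttcttccgatgaGATGAGcatgatatttac
RRP6: gagggcatcggAAAATTTTtcagtaatgaa
In build R64 the windows lie at chrX:217393-217422 (minus strand) for UTP10, chrXIII:82984-83013 (plus strand) for UTP14, chrV:162607-162636 (plus strand) for NUG1, chrIV:611973-612002 (plus strand) for RRP8, chrVIII:234761-234790 (minus strand) for RRP4, chrXIII:731257-731286 (minus strand) for RRP5, chrXV:727379-727408 (plus strand) for NOC2 and chrXV:326732-326761 (plus strand) for RRP6. The first 5 hold the longer PAC form, RRP5 and NOC2 hold its core alone, and RRP6, the nuclear exonuclease of the exosome, has an RRPE core and no PAC core in its 250 bases. In RRP8 the RRPE core, here in lower case, directly precedes the PAC element. ENP1, NOP1, NOP58, UTP9 and UTP20, also described below but not shown, hold the PAC core without the longer form. The windows shown thus hold the longer form more often than the whole set does (26 of 65).

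**Figure D1:**
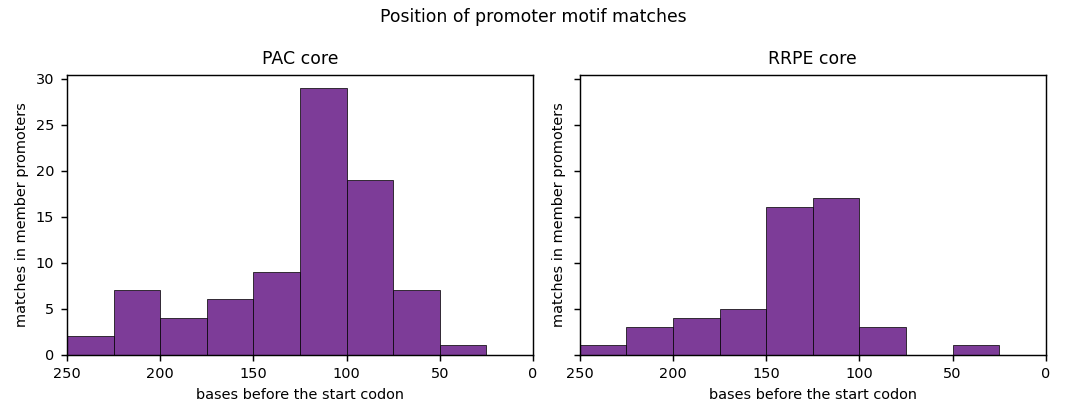
Histograms of the distance from each match to the start codon (bases before the start codon on the x axis, matches in the 65 promoters on the y axis), for the PAC core on one panel and the RRPE core on the other. The 84 PAC core matches have a median of 116 bases and the 50 RRPE core matches a median of 129 bases.

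The elements were also close together in position. The interquartile range of the 84 PAC core matches was 92 to 132 bases before the start codon, a narrower band than the 84 to 187.5 bases of the 1201 matches in all promoters. The RRPE core matches had an interquartile range of 112 to 160.5 bases, against 105 to 175 bases in all promoters.

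Levels are given as CPM (counts relative to the total of the library, on TMM-scaled library sizes), so a change in the total RNA or total footprints of a cell is not seen. Per kilobase of coding sequence, the median RNA level of the 65 genes at 1 h was 172 CPM per kb in IAA cells and 149 CPM per kb in DMSO cells, and the range ran from UTP20 (52.8 CPM per kb in IAA and 51.1 in DMSO) to NOP1 (1330.2 in IAA and 1523 in DMSO). At 8 h the median RNA level was 59.2 CPM per kb in IAA cells and 59.3 in DMSO cells. The median footprint level was 55.8 CPM per kb in IAA cells and 56.8 in DMSO cells at 1 h, and 52.2 in IAA cells and 43.9 in DMSO cells at 8 h. As a share of all counts without scaling, the genes took 0.716% and 0.704% of footprints in the 8 h IAA libraries, against 0.449% and 0.493% in the DMSO ones, so the IAA libraries lay above both controls. At 1 h the IAA libraries were above both controls as well, at 0.876% and 0.915% of footprints in IAA libraries against 0.800% and 0.814% in DMSO libraries, and at 2.19% and 2.19% of RNA counts in IAA libraries against 1.88% and 1.77% in DMSO libraries. In RNA at 8 h the shares overlapped, at 0.827% and 0.744% in IAA libraries against 0.728% and 0.849% in DMSO libraries.

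At 1 h RNA was called in neither direction for 50 of the 65 genes. By edgeR's quasi-likelihood test, with p-values adjusted over all features tested and a threshold of 0.05, RNA of 12 of the 65 genes rose (18.5%, against 21.9% of all 6247 features) and RNA of 3 fell (4.62%, against 20.9%). Their median log2 fold change was 0.07, and that of all features 0.01. These counts leaned on single libraries: 6 were higher without the second DMSO library, 0 were lower without the first DMSO library and 1 was lower without the second IAA library. The calls of 6 genes (NOP19, NOP8, RRP4, RRP42, RRP6 and UTP9) held whichever library was left out. With the replicate number as a block, 24 were higher and 12 lower, and the shares of all features in that fit are not given here. With plain total counts in place of TMM, 41 were higher and 0 lower (median 0.29), on a scale on which the median of all features was 0.23. The shares of all features called with total counts are not given here either.

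Footprints at 1 h went both ways, with 12 of 65 genes higher (18.5%, background 11.1% of 5169 features) and 10 lower (15.4%, background 14.9%), and a median of 0.03 (all features 0.01). The higher count was 5 without the first DMSO library and 4 without the second IAA library, and the lower count was 5 without the first IAA library. The calls of 7 genes (NOP4, NUG1, RRP12, RRP3, RRP5, RRP8 and UTP20) held whichever library was left out. DESeq2 called 3 higher and 4 lower, and total counts gave 32 higher and 2 lower (median 0.21, all features 0.19). The shares of all features called by DESeq2 or with total counts are not given here. The footprint change relative to the RNA change, called translational efficiency (TE) below and tested as the interaction of assay and treatment, was higher in 3 genes (4.62%, background 12.6% of 6055 features) and lower in 12 (18.5%, background 8.98%), with a median of -0.07 against 0.04. The higher count was 1 without either footprint DMSO library, the second footprint IAA library or the first RNA DMSO library, and 6 without the second RNA DMSO library. The lower count was 2 and 7 without the first and the second footprint IAA library, and 5 and 6 without the first and the second footprint DMSO library. NUG1 (higher) and UTP9 (lower) were called in every one of these fits.

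At 8 h it was the footprints that moved, and nearly all of those called went up. Of the 64 genes tested, 23 were higher (35.9%, background 11.1% of 5012 features) and 1 was lower (1.56%, background 13%), with a median log2 fold change of 0.28 against 0.01. The higher count was 14 without the second IAA library and 6 without the first, while the lower count was 2 without the second DMSO library and 0 without either IAA library. NOC2, RRP5, UTP10, UTP14 and UTP22 were called whichever library was left out. DESeq2 called 15 higher and 1 lower, and total counts gave 42 higher and 0 lower (median 0.54, all features 0.27). The shares of all features called in these fits are not given here, so these counts have no background beside them.

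RNA at 8 h rose in 2 of 65 genes (3.08%, background 9.03% of 6100 features) and fell in 5 (7.69%, background 8.61%), with a median of -0.05 against 0.01, and with total counts 2 were higher and 2 lower. Without the first or the second IAA library neither direction had a call, and 1 was higher without the first DMSO library and 2 were lower without the second. TE at 8 h was higher in 10 of 64 genes (15.6%, background 4.41% of 5442 features) and lower in 0 (background 1.82%), with a median of 0.39 against 0.03. At an unadjusted p under 0.05 the same test had 32 higher and 2 lower, and DESeq2 called 10 higher and 1 lower. The shares of all features for these counts are not given here, and 4.41% and 1.82% hold for the adjusted p of edgeR only. The 10 became 5 and 6 without the first and the second footprint DMSO library, 0 and 6 without the first and the second footprint IAA library, 18 and 3 without the first and the second RNA DMSO library and 3 without the second RNA IAA library, and 1 was lower without the second footprint DMSO, the first RNA DMSO or the first RNA IAA library.

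**Figure D2:**
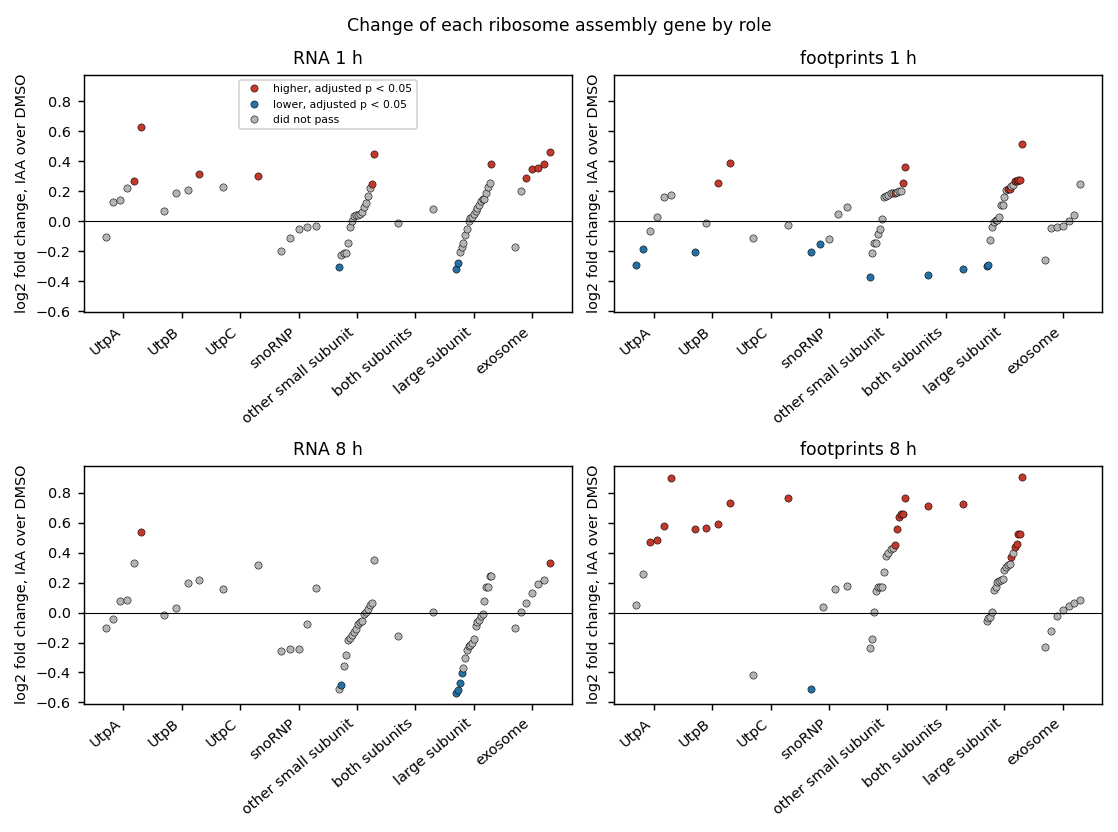
Log2 fold change of IAA over DMSO (y axis) for each gene, grouped by role (x axis), in 4 panels for RNA and footprints at 1 h and 8 h. Each point is a gene, red where it was higher, blue where it was lower and grey where it did not pass an adjusted p of 0.05. The 8 h footprint panel holds 23 red points, none of them in the exosome or snoRNP groups.

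Within the small subunit processome, the 6 measured subunits of UtpA, the complex that first binds the precursor, had higher footprints at 8 h in 4 of 6 genes (UTP10, UTP15, UTP4 and UTP8; 66.7%, background 11.1%), though in 1 of 6 without the first IAA library and 2 of 6 without the second. UTP10, which encodes its largest subunit (chromosome X, 212000 to 217309), had 247 and 200.5 CPM in IAA libraries, against 121 and 119.8 CPM in DMSO libraries. Both IAA libraries lay above both controls, a log2 fold change of 0.90 ± 0.13 (adjusted p = 9.86e-07). At 1 h the same gene had 282 and 304 CPM in IAA libraries, against 343 and 323 CPM in DMSO libraries. Here the IAA libraries lay below both controls, at -0.18 ± 0.06 (adjusted p = 0.0211), while its RNA was higher (598 and 578 CPM in IAA libraries, against 481 and 498 CPM in DMSO libraries) at 0.27 ± 0.08 (adjusted p = 0.041). That left UTP10 with a TE change of -0.47 ± 0.11 (adjusted p = 0.0113) at 1 h and 0.56 ± 0.20 (adjusted p = 0.0977) at 8 h, the later one not past the threshold. Its RNA at 8 h was 473 and 389 CPM in IAA libraries, against 316 and 369 CPM in DMSO libraries and did not pass (0.33 ± 0.15, adjusted p = 0.167). Neither the footprint call nor the RNA call of UTP10 at 1 h was among those that held whichever library was left out. With total counts 0 of the 6 UtpA genes were called lower in footprints at 1 h, although the sign of UTP10 did not turn.

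UTP9, another UtpA subunit (chromosome VIII, 491931 to 493658), showed the opposite arrangement, with the called changes in RNA. Its RNA was 363 and 358 CPM in IAA libraries, against 236 and 232 CPM in DMSO libraries at 1 h. At 8 h it was 91.1 and 98.9 CPM in IAA libraries, against 63.1 and 67.3 CPM in DMSO libraries. The groups did not overlap at either time, with log2 fold changes of 0.63 ± 0.07 (adjusted p = 0.00189) at 1 h and 0.54 ± 0.10 (adjusted p = 0.0155) at 8 h. Its footprints were 75.8 and 85.1 CPM in IAA libraries, against 83.7 and 85.9 CPM in DMSO libraries at 1 h, where the groups overlapped (-0.07 ± 0.09, adjusted p = 0.622), and its TE fell by 0.71 ± 0.11 on the log2 scale at 1 h (adjusted p = 0.00191). At 8 h its footprints were 71.3 and 57.1 CPM in IAA libraries, against 48.6 and 56.3 CPM in DMSO libraries. Both IAA libraries lay above both controls there without a call. UTP5, a WD-repeat subunit, had lower footprints at 1 h (-0.29 ± 0.08, adjusted p = 0.00327) and a lower TE (-0.44 ± 0.10, adjusted p = 0.0124), and at 8 h its footprints were at 0.05 ± 0.16 (adjusted p = 0.869).

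The 4 UtpB genes of the set (UTP6, UTP13, UTP18 and UTP21) all had higher footprints at 8 h, by 0.56 to 0.73, and this count was 0 without the first IAA library and 3 without the second IAA or the second DMSO library. UTP6, a HAT-repeat protein, had 81.8 and 64.5 CPM in IAA libraries, against 44.2 and 43.8 CPM in DMSO libraries at 8 h. At 1 h it had 86.4 and 89.3 CPM in IAA libraries, against 60.5 and 74.6 CPM in DMSO libraries. The IAA libraries lay above the controls at both times, by 0.39 ± 0.09 (adjusted p = 0.00127) at 1 h and 0.73 ± 0.18 (adjusted p = 0.00134) at 8 h, with no called change in RNA (0.19 ± 0.08 and 0.22 ± 0.14, adjusted p = 0.104 and 0.314). UTP18, which docks the exosome's helicase Mtr4 on the precursor, behaved likewise (0.26 ± 0.08, adjusted p = 0.0172 at 1 h, 0.59 ± 0.17, adjusted p = 0.00697 at 8 h). UTP13, a WD-repeat protein, differed in direction between the times, at -0.21 ± 0.08 (adjusted p = 0.039) at 1 h and 0.56 ± 0.16 (adjusted p = 0.00694) at 8 h. Its 1 h call was not among those that held whichever library was left out. With total counts 0 of the 4 UtpB genes were called lower at 1 h. In UtpC, which works with casein kinase 2, UTP22 had 167 and 161 CPM in IAA libraries, against 92.1 and 99.0 CPM in DMSO libraries at 8 h, without overlap (0.77 ± 0.14, adjusted p = 2.65e-05). Its partner RRP7 had 76.2 and 63.3 CPM in IAA libraries, against 110.4 and 81.1 CPM in DMSO libraries, lower in both IAA libraries but not past the threshold (-0.41 ± 0.16, adjusted p = 0.056).

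Of the 18 other small subunit factors, 6 had higher footprints at 8 h (ESF1, NOP14, NOP9, UTP14, UTP20 and UTP25; 33.3%, background 11.1%), a count that was 2 without the first IAA library. UTP14 (chromosome XIII, 83090 to 85789) activates the helicase Dhr1, which unwinds U3 from the precursor. Its footprints at 8 h were 64.8 and 69.3 CPM in IAA libraries, against 39.8 and 39.4 CPM in DMSO libraries, while its RNA was 63.8 and 53.2 CPM in IAA libraries, against 68.0 and 81.7 CPM in DMSO libraries. Footprints therefore rose by 0.76 ± 0.18 (adjusted p = 0.000875) with both IAA libraries above both controls, RNA stood at -0.36 ± 0.14 (adjusted p = 0.112), and the TE change of 1.12 ± 0.20 (adjusted p = 0.00572) was the highest among the genes called at 8 h. UTP20, a very large HEAT-repeat protein (chromosome II, 227636 to 235117), had 134 and 123 CPM in IAA libraries, against 80.1 and 84.0 CPM in DMSO libraries at 8 h. At 1 h it had 202 and 224 CPM in IAA libraries, against 265 and 288 CPM in DMSO libraries. It therefore changed direction between the times, at -0.37 ± 0.06 (adjusted p = 1.51e-05) at 1 h and 0.64 ± 0.14 (adjusted p = 0.000687) at 8 h, with both IAA libraries outside the controls each time, and its TE was -0.44 ± 0.11 (adjusted p = 0.0194) at 1 h and 0.92 ± 0.20 (adjusted p = 0.014) at 8 h.

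ENP1, needed for late steps of small subunit assembly, changed at the RNA level instead. Its RNA was 202 and 204 CPM in IAA libraries, against 261 and 240.3 CPM in DMSO libraries at 1 h, and 65.4 and 54.5 CPM in IAA libraries, against 77.2 and 90.2 CPM in DMSO libraries at 8 h. It was lower without overlap at both times (-0.30 ± 0.08, adjusted p = 0.0218 at 1 h, and -0.48 ± 0.13, adjusted p = 0.0452 at 8 h), while its footprints were not called at either (0.20 ± 0.08, adjusted p = 0.065 at 1 h, and 0.17 ± 0.16, adjusted p = 0.499 at 8 h). TE of ENP1 was higher at 1 h (0.48 ± 0.14, adjusted p = 0.0354) and did not pass at 8 h (0.65 ± 0.20, adjusted p = 0.0574). The helicase RRP3 had higher footprints at 1 h (0.36 ± 0.08, adjusted p = 0.000566) and NOP19 had higher RNA at 1 h (0.45 ± 0.09, adjusted p = 0.0117), the only ones of these 18 genes whose calls held without any one library at 1 h apart from UTP20.

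The snoRNP genes had few calls. NOP1 encodes fibrillarin, the methyltransferase of box C/D snoRNPs, and NOP56 and NOP58 encode their paired scaffold proteins. In RNA at 1 h NOP1 had 1373 and 1245 CPM in IAA libraries, against 1584 and 1414 CPM in DMSO libraries, both IAA libraries below the controls without passing (-0.20 ± 0.11, adjusted p = 0.206). Its footprints were 432 and 455 CPM in IAA libraries, against 391 and 402 CPM in DMSO libraries at 8 h, both above the controls without passing (0.16 ± 0.12, adjusted p = 0.353), and its 1 h footprints (-0.12 ± 0.06, adjusted p = 0.0997), 8 h RNA (-0.24 ± 0.14, adjusted p = 0.265) and 8 h TE (0.40 ± 0.18, adjusted p = 0.181) did not pass either. At 1 h the footprints of NOP56 (-0.15 ± 0.05, adjusted p = 0.0376) and NOP58 (-0.20 ± 0.06, adjusted p = 0.00635) fell slightly. Neither call was among those that held whichever library was left out. With total counts 0 of the 5 snoRNP genes were called lower and 2 were called higher in 1 h footprints. With total counts the NOP56 change turned to 0.03, the only one of the calls among the 65 genes, over all comparisons, whose sign turned. RNA of 0 of the 5 snoRNP genes was called at either time (edgeR; at an unadjusted p under 0.05, 0 at 1 h and 1 lower at 8 h, and 0 by DESeq2 at both). NOP58 RNA stood at -0.03 ± 0.12 (adjusted p = 0.839) at 1 h and -0.25 ± 0.13 (adjusted p = 0.201) at 8 h, and its TE at 1 h at -0.19 ± 0.14 (adjusted p = 0.395). NOP10, a small protein of the box H/ACA snoRNPs that guide pseudouridylation, gave the single decrease of 8 h footprints. It had 108 and 106 CPM in IAA libraries, against 145 and 157 CPM in DMSO libraries, and both IAA libraries lay below both controls (-0.51 ± 0.14, adjusted p = 0.00408). At 1 h its footprints were 66.6 and 68.9 CPM in IAA libraries, against 62.6 and 64.5 CPM in DMSO libraries, with a fold change of 0.10 ± 0.09 (adjusted p = 0.481). It has the shortest coding sequence of the genes, at 177 bases, and the footprint tables count 39 of its codons, 20 fewer than that length holds. Its call at 8 h was lost without either IAA library.

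RRP5 and RRP12 serve both subunits, RRP5 in the early cleavages of the precursor and RRP12 as a HEAT-repeat factor in export. RRP5 (chromosome XIII, 725934 to 731123) had footprints of 421 and 441 CPM in IAA libraries, against 549 and 526 CPM in DMSO libraries at 1 h. At 8 h it had 310.3 and 255 CPM in IAA libraries, against 166 and 174 CPM in DMSO libraries. The IAA libraries were thus below both controls at 1 h (-0.32 ± 0.06, adjusted p = 2.77e-05) and above both at 8 h (0.73 ± 0.13, adjusted p = 2e-05), while its RNA stood at -0.01 ± 0.09 and -0.16 ± 0.19 (adjusted p = 0.918 and 0.603), and its TE was higher at 8 h (0.88 ± 0.23, adjusted p = 0.0288). RRP12 had 222 and 233 CPM in IAA libraries, against 294 and 291 CPM in DMSO libraries at 1 h, and 175 and 137 CPM in IAA libraries, against 79.5 and 105 CPM in DMSO libraries at 8 h. Its changes were -0.36 ± 0.06 (adjusted p = 1.09e-05) at 1 h and 0.71 ± 0.15 (adjusted p = 0.000196) at 8 h. The fall at 1 h held for both genes without any one library, whereas the rise at 8 h held for RRP5 only and RRP12 lost its call without the first IAA library. With total counts 1 of these 2 genes was called lower at 1 h.

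Among the 21 large subunit genes, footprints of 7 rose at 1 h (NOP12, NOP13, NOP15, NOP53, NSA2, NUG1 and RRP8; 33.3%, background 11.1%) and 2 fell (NOP4 and NSA1; 9.52%, background 14.9%), the higher count being 4 without the first DMSO library and 2 without the second IAA library. At 8 h 6 were higher (NOC2, NOC3, NOP2, NUG1, RLP24 and RRP8; 28.6%, background 11.1%), though 1 without the first IAA library, 2 without the second and 4 without the first DMSO library. NOC2 escorts early large subunit precursors through the nucleolus with NOC1 (MAK21) and then NOC3. NOC2 (chromosome XV, 727512 to 729644) had 173 and 172 CPM in IAA libraries, against 81.4 and 98.4 CPM in DMSO libraries at 8 h, the log2 fold change of 0.91 ± 0.14 (adjusted p = 1.51e-06) being the highest footprint change of all 64 genes. Its RNA was 178 and 156 CPM in IAA libraries, against 144 and 172 CPM in DMSO libraries, where the groups overlapped (0.08 ± 0.13, adjusted p = 0.707), and its TE was 0.83 ± 0.19 (adjusted p = 0.0155). At 1 h its footprints were at 0.11 ± 0.06 (adjusted p = 0.219), its RNA at 0.23 ± 0.08 (adjusted p = 0.0565) and its TE at -0.14 ± 0.10 (adjusted p = 0.379), none of them past the threshold.

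NUG1, a nucleolar GTPase of large subunit assembly (chromosome V, 162723 to 164285), was called in RNA, footprints and TE at both times. Its RNA was 381 and 351 CPM in IAA libraries, against 484 and 427 CPM in DMSO libraries at 1 h, and 120.4 and 107 CPM in IAA libraries, against 162 and 168 CPM in DMSO libraries at 8 h. Both IAA libraries lay below both controls each time (-0.32 ± 0.10, adjusted p = 0.0414 at 1 h, and -0.54 ± 0.10, adjusted p = 0.015 at 8 h). Its footprints ran the other way, with 287 and 282 CPM in IAA libraries, against 236 and 237 CPM in DMSO libraries at 1 h and 158 and 165 CPM in IAA libraries, against 119 and 129 CPM in DMSO libraries at 8 h. These were 0.27 ± 0.06 (adjusted p = 0.000604) and 0.37 ± 0.13 (adjusted p = 0.0372), and the TE changes were 0.57 ± 0.12 (adjusted p = 0.00731) and 0.90 ± 0.17 (adjusted p = 0.0064). The 1 h footprint and TE calls held without any one library, whereas the 1 h RNA call and the RNA, footprint and TE calls at 8 h did not.

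RRP8, the enzyme that methylates an adenine of 25S rRNA (chromosome IV, 612073 to 613251), had the highest footprint change at 1 h. It had 77.8 and 83.1 CPM in IAA libraries, against 56.2 and 56.7 CPM in DMSO libraries at 1 h. At 8 h it had 78.4 and 75.1 CPM in IAA libraries, against 49.2 and 55.4 CPM in DMSO libraries. The IAA libraries were above both controls each time, by 0.52 ± 0.09 (adjusted p = 2.17e-05) and 0.53 ± 0.17 (adjusted p = 0.015), and TE was higher at 8 h (0.89 ± 0.18, adjusted p = 0.00951). NSA1, a factor of large subunit precursors, had lower footprints at 1 h (60.7 and 64.1 CPM in IAA libraries, against 76.2 and 77.9 CPM in DMSO libraries), a change of -0.30 ± 0.09 (adjusted p = 0.0116), and a lower TE (-0.58 ± 0.12, adjusted p = 0.00884). Also among the large subunit genes, NSA2 had a higher TE at 1 h (0.46 ± 0.13, adjusted p = 0.0259), NOP53, which guides the exosome's helicase to large subunit precursors, had higher footprints at 1 h (0.28 ± 0.09, adjusted p = 0.0226), NOP8 had higher RNA at 1 h (0.38 ± 0.08, adjusted p = 0.0122) and NOP16 had lower RNA at 1 h (-0.28 ± 0.09, adjusted p = 0.0493).

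RNA of 4 large subunit genes fell at 8 h, NOP13 (-0.41 ± 0.11), NOP16 (-0.52 ± 0.11), NUG1 and RRP15 (-0.47 ± 0.13), with adjusted p of 0.0433, 0.0185, 0.015 and 0.0423, and 0 of these 4 calls remained without either of the IAA libraries and 2 of the 21 genes were lower without either of the DMSO libraries.

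The exosome genes were called in RNA at 1 h and not in footprints. Of 7 genes, 5 had higher RNA at 1 h (RRP4, RRP42, RRP43, RRP45 and RRP6; 71.4%, background 21.9%), with a median over the 7 of 0.35, and the count was 3 without the second DMSO library. RRP4, an RNA-binding cap subunit (chromosome VIII, 233579 to 234658), had RNA of 164 and 177 CPM in IAA libraries, against 128 and 119.6 CPM in DMSO libraries at 1 h. RRP6 had 238 and 222 CPM in IAA libraries, against 181 and 171 CPM in DMSO libraries. RRP42, a subunit of the ring, had 149 and 149 CPM in IAA libraries, against 119 and 114 CPM in DMSO libraries. In all 3 both IAA libraries lay above both controls, by 0.46 ± 0.08 (adjusted p = 0.00579) for RRP4, 0.38 ± 0.08 (adjusted p = 0.0108) for RRP6 and 0.36 ± 0.07 (adjusted p = 0.00832) for RRP42. RRP46, a ring subunit, stood at -0.17 ± 0.07 (adjusted p = 0.102).

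Exosome footprints mostly did not follow. None of the 7 genes was called in footprints at 1 h by edgeR, where an unadjusted p under 0.05 gave 1 higher and 1 lower, or at 8 h, where it gave 0 in either direction, and DESeq2 called 0 at both times. With total counts 1 of 7 was higher at 1 h and 0 at 8 h. RRP4 had footprints of 48.1 and 55.0 CPM in IAA libraries, against 52.4 and 51.5 CPM in DMSO libraries at 1 h, where the groups overlapped (-0.00 ± 0.10, adjusted p = 0.995). RRP6 had 72.2 and 75.6 CPM in IAA libraries, against 73.4 and 79.5 CPM in DMSO libraries at 1 h, which overlapped as well (-0.04 ± 0.09, adjusted p = 0.79). RRP43 had 55.0 and 57.4 CPM in IAA libraries, against 46.6 and 48.2 CPM in DMSO libraries at 1 h. Both IAA libraries lay above the controls without passing (0.25 ± 0.10, adjusted p = 0.068), whereas RRP40 stood at -0.26 ± 0.12 (adjusted p = 0.121). TE at 1 h was lower in 4 of 7 (RRP4, RRP40, RRP42 and RRP6; 57.1%, background 8.98%), at -0.48 ± 0.13 for RRP4, -0.47 ± 0.14 for RRP40, -0.41 ± 0.13 for RRP42 and -0.44 ± 0.12 for RRP6 (adjusted p = 0.0214, 0.0374, 0.0418 and 0.0216), yet the count was 0 and 1 without the first and the second footprint IAA library, 1 and 2 without the first and the second footprint DMSO library, and 2 without the second RNA DMSO, the first RNA IAA or the second RNA IAA library. At 8 h only RRP42 of the 7 had higher RNA (0.33 ± 0.09, adjusted p = 0.0471), a call lost without any one of the 4 RNA libraries, while RRP6 stood at 0.13 ± 0.10 (adjusted p = 0.379) in RNA and -0.06 ± 0.18 (adjusted p = 0.881) in TE.

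**Figure D3:**
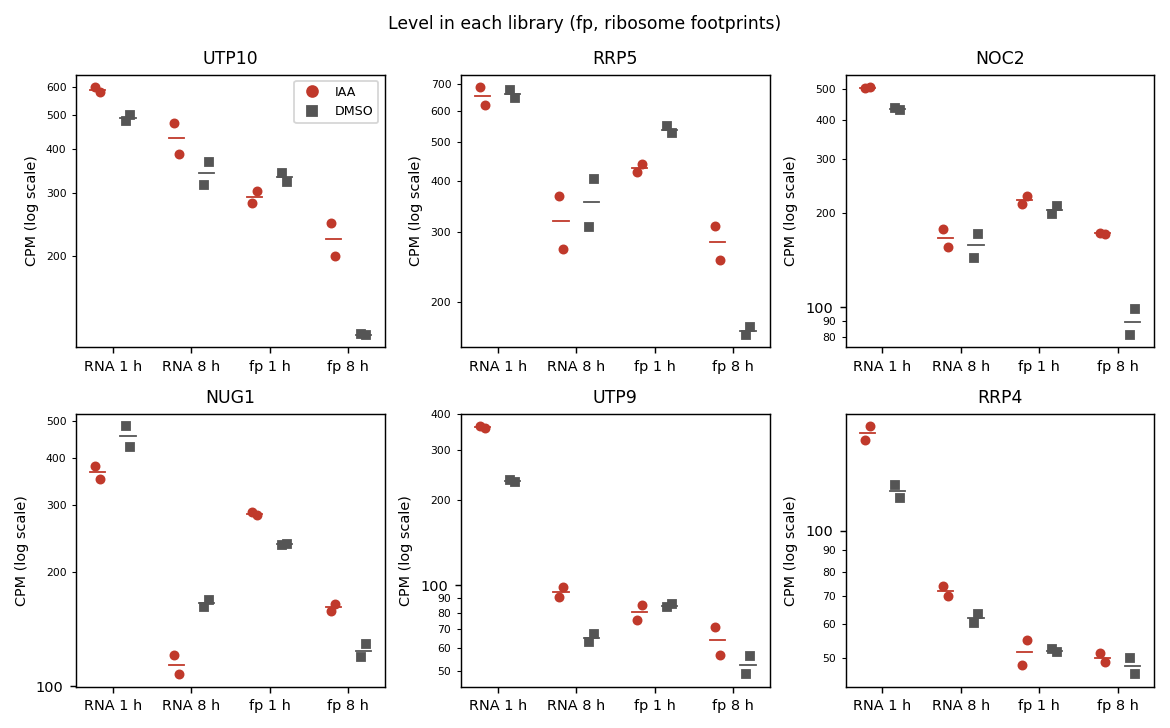
CPM of 6 genes in each library (y axis, log scale), with IAA libraries as red circles to the left of DMSO libraries as grey squares, for RNA and footprints at 1 h and 8 h. UTP10, RRP5 and NOC2 separate in 8 h footprints, NUG1 has lower RNA and higher footprints at both times, and UTP9 and RRP4 separate in 1 h RNA.

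On the TMM scale no gene was called in the same direction in RNA and footprints, at 1 h (0 of 65) or at 8 h (0 of 64), while of all features tested in both assays 2.61% were higher and 5.74% lower in both at 1 h, and 2.5% and 4.05% at 8 h. DESeq2 also gave 0 at both times. This did not hold at 1 h with total counts, by which 17 of 65 genes were higher in both assays (26.2%, against 11.7% of 5090 features), and at 8 h 1 of 64 was (1.56%, against 4.15%). On the TMM scale UTP10 at 1 h had higher RNA and lower footprints, and NUG1 had lower RNA and higher footprints at both times. Such opposite calls were 2 of 65 at 1 h (3.08%, against 3.44% of all features) and 1 of 64 at 8 h (1.56%, against 0.319%). DESeq2 gave 1 of 64 at 1 h (1.56%, against 1.75%) and 0 of 64 at 8 h (against 0.574%). Across the 65 genes at 1 h the 2 log2 fold changes had Pearson r of -0.0929 and Spearman rho of -0.104, and across 64 genes at 8 h r of 0.0212 and rho of 0.0284. Over all features r was 0.236 (5090 features) at 1 h and 0.487 (5010 features) at 8 h. These are descriptions across genes of the same libraries, and genes are not independent replicates. No call in either assay was made for 30 of 65 genes at 1 h and for 34 of 64 at 8 h.

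**Figure D4:**
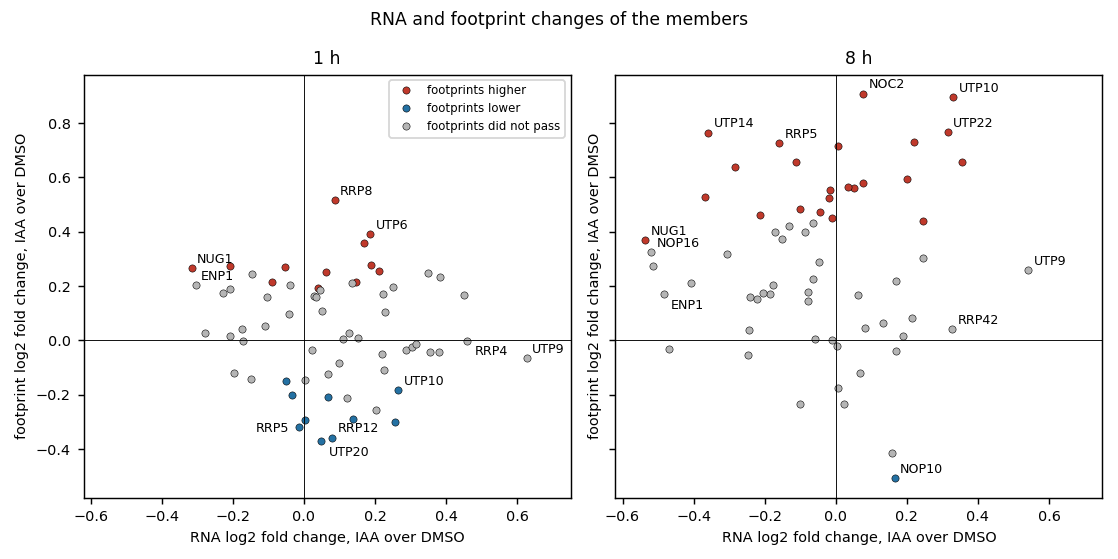
Log2 fold change of IAA over DMSO in footprints (y axis) against that in RNA (x axis), 1 point a gene, at 1 h (left) and 8 h (right). Colours give the footprint call, and the 8 h panel has its 23 red points spread from lower RNA (NUG1, UTP14) to higher RNA (UTP10, UTP22).

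The 8 h footprint change followed the length of the coding sequence. Across the 64 genes the log2 fold change and log2 coding length had Pearson r of 0.752 and Spearman rho of 0.737, against 0.38 and 0.452 over 5001 features with a known length. Pearson r lay between 0.588 and 0.786 with each library left out, between 0.479 and 0.809 for each IAA library set over each DMSO library, and at 0.711 without the 4 longest genes. At or above the genes' median length of 1455 bases, 20 of 32 had higher footprints at 8 h (62.5%, median 0.48), whereas all features that long had 19.8% higher of 2123 (median 0.22). Below it, 3 of 32 did (9.38%, median 0.15), against 4.62% of 2878 (median -0.16). Without the first IAA library the counts were 6 of 32 and 0 of 32, without the second they were 13 of 32 and 1 of 32, and without the second DMSO library 15 of 32 and 5 of 32. The 3 shorter genes were RLP24, RRP8 and UTP6.

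The same measure ran the other way at 1 h. There r was -0.312 and rho -0.267 over 65 genes, against -0.0962 and -0.0895 over 5133 features, and r was -0.125 without the 4 longest. Of the 33 longer genes 5 had higher (15.2%) and 9 lower (27.3%) footprints at 1 h, against 10.5% and 17.9% of 2182 features that long. Of the 32 shorter ones 7 were higher (21.9%) and 1 lower (3.12%), against 11.7% and 12.5% of 2951 features. Without the first IAA library the longer genes had 6 higher and 5 lower and the shorter ones 0 lower, and without the second IAA or the first DMSO library the longer genes had 2 higher with 7 or 6 lower. For the shorter genes the higher count was 2 and 3 without these last 2 libraries. RNA at 8 h showed no such relation (r 0.0495). Length also sets how many footprints a gene collects, and the part of the protocol and of depth in the length relation was not tested.

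**Figure D5:**
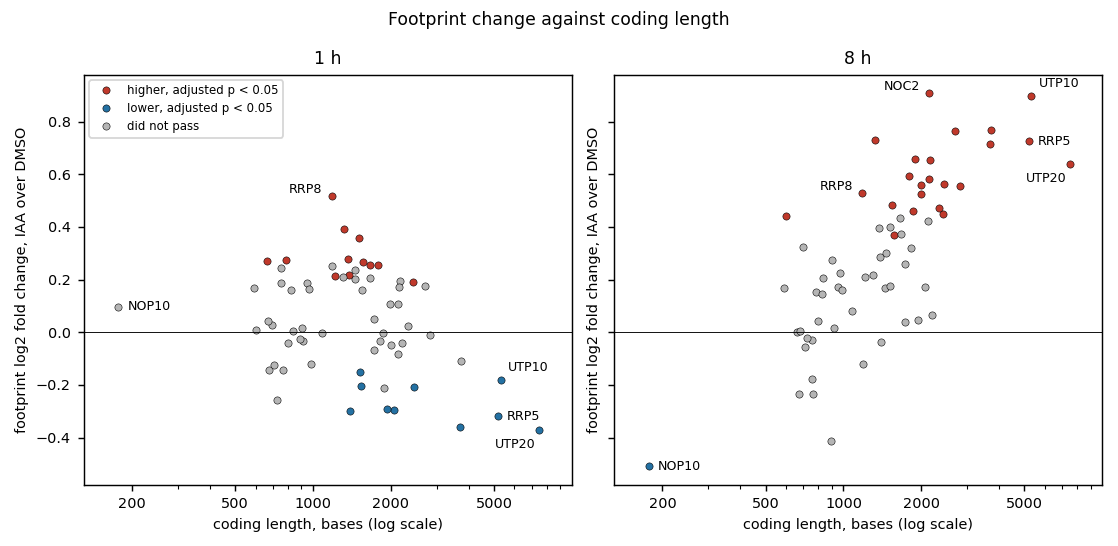
Log2 fold change of footprints, IAA over DMSO (y axis), against coding length in bases (x axis, log scale), at 1 h (left) and 8 h (right), 1 point a gene. At 8 h the points climb to the right, with NOP10 (177 bases) lowest and UTP10, RRP5 and UTP20 (5310, 5190 and 7482 bases) all higher, whereas at 1 h the same 3 long genes are lower.

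Between the times the footprint effect differed in 14 of 64 genes, and the RNA effect was not found to differ in any of 65. In the interaction of time and treatment over 8 footprint libraries, the 8 h effect exceeded the 1 h effect in 13 of 64 genes (20.3%, background 8.07% of 5034 features) and fell short of it in 1, NOP10 (1.56%, background 5.32%), with a median difference of 0.20 (all features -0.01). The 13 were UTP10 (1.08 ± 0.14, adjusted p = 3.01e-05), RRP12 (1.05 ± 0.16, adjusted p = 0.000183), RRP5 (1.05 ± 0.13, adjusted p = 2.62e-05), UTP20 (1.01 ± 0.14, adjusted p = 4.16e-05), NOC2 (0.79 ± 0.14, adjusted p = 0.000524), ESF1, UTP22, UTP13, NOP9, UTP14, UTP21, NOP4 and NOP2. NOP10 stood at -0.60 ± 0.15 (adjusted p = 0.00853), whereas ENP1 (-0.03 ± 0.17, adjusted p = 0.951) and RRP6 (0.13 ± 0.17, adjusted p = 0.68) did not pass. The 13 became 8 without the first IAA library of 1 h, and total counts gave 20, with the share of all features in that fit not given here. The lower count was 0 without the first DMSO or the second IAA library of 1 h and 2 without the second DMSO library of 8 h. In their own comparisons 5 genes were lower at 1 h and higher at 8 h (RRP12, RRP5, UTP10, UTP13 and UTP20), and all 5 are among the 13. Of these, RRP12, RRP5 and UTP20 kept the 1 h call whichever library was left out, and RRP5 and UTP10 kept the 8 h call. Another 5 (NOP14, NUG1, RRP8, UTP18 and UTP6) were higher at both times, and the test of the difference called none of them.

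RNA effects differed between the times in 0 of 65 genes in either direction by edgeR (background 0.992% higher and 0.512% lower of 6451 features), with 0 higher and 3 lower at an unadjusted p under 0.05 and 0 by DESeq2, and the median difference was -0.14 (all features -0.01). The differences of the genes named throughout were -0.25 to 0.06, that of RRP6 being -0.25 ± 0.13, that of NUG1 -0.23 ± 0.16 and that of NOP58 -0.22 ± 0.19 (adjusted p = 0.392, 0.526 and 0.603). UTP9 and RRP42 were higher in RNA at both times, and ENP1, NOP16 and NUG1 were lower at both. The protocols changed with the time in both assays, so a difference between the times cannot be told apart from one between the protocols.

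Other genes of ribosome assembly were counted from lists drawn up by function. In 8 h footprints, where 11.1% of all features were higher and 13% lower, of 34 further small subunit assembly genes 7 were higher (20.6%) and 1 lower (2.94%, median 0.24), and of 50 further large subunit genes 14 were higher (28%) and 1 lower (2%, median 0.23), beside 23 higher and 1 lower of the 64 genes named above (median 0.28). The partners of the snoRNPs and the exosome had 2 higher of 18 (11.1%, the same share as all features) and 0 lower (2 lower at an unadjusted p under 0.05, 0 by DESeq2). Among 13 regulators of the regulon 3 were higher (23.1%), and among 7 subunits of RNA polymerase I 3 were higher (42.9%). At 1 h, where 11.1% of all features were higher and 14.9% lower, the further large subunit genes had 5 higher (10%) and 10 lower (20%) footprints of 50, and the further small subunit genes 3 higher (8.82%) and 2 lower (5.88%) of 34. The footprint difference between the times was not particular to the genes named above. It was positive and called in 10 of 34 further small subunit genes (29.4%, median 0.28) and 13 of 50 further large subunit genes (26%, median 0.31). For the named genes the share was 20.3% and the median 0.20.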

How the data were processed

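The deposited tables hold unnormalised whole-number counts per feature, which the authors made with cutadapt and STAR on build R64 (sacCer3), as the submitters' processing notes name them. How reads were assigned to genes, and whether strand was used, is not given in the sources used here. Footprint tables count 20 codons fewer than the coding length of each gene described here. RNA tables also hold lines for reads assigned to no gene, 21.7 to 31.2% of reads, which stayed out of library sizes and tests. No gene described here overlaps another in the reference annotation.

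Groups came from the labels. IAA was compared with DMSO within a time by edgeR 4.0.16 (limma 3.58.1, R 4.3.3), with its filter on low counts, TMM scaling, quasi-likelihood tests and Benjamini-Hochberg adjustment over all features. TE was the interaction of assay and treatment, and the difference between times that of time and treatment, each over 8 libraries. Errors beside log2 fold changes are standard errors from the same fit. Alternatives were DESeq2 1.42.0, its size factors, total counts, no filter, a replicate block and each library left out. The fits were tested on simulated data. Coding length, the counts by role and length without each library or with total counts, and the calls shared by RNA and footprints under other settings were added after the data were seen.

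Members and lists were chosen with earlier results of these data known. Named in every comparison are NOP1, NOP58, UTP10, RRP5, ENP1, NOC2, NUG1 and RRP6, and in each comparison of IAA with DMSO up to 4 members of the most positive and 4 of the most negative log2 fold change past the threshold with at least 50 counts on average and no overlap of groups. Other members were named as called members of a role, after their values were seen. Promoter windows and coding lengths came from RefSeq (R64), in which all 65 members were found, and Python 3.11.15 with matplotlib 3.10.9 drew the figures.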

Additional observations from a re-analysis of the deposited data

Results flagged for a closer look

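The effect of IAA on footprints differed between 8 h and 1 h, by the test of the difference itself, for 3 of the genes named in every comparison. The 8 h log2 fold change minus the 1 h one was 0.79 for NOC2 (0.91 at 8 h and 0.11 at 1 h, adjusted p of the difference 0.000524 by edgeR), 1.05 for RRP5 (0.73 at 8 h and -0.32 at 1 h, adjusted p = 2.62e-05) and 1.08 for UTP10 (0.90 at 8 h and -0.18 at 1 h, adjusted p = 3.01e-05). In RRP5 and UTP10 both IAA libraries lay below both DMSO libraries at 1 h and above both at 8 h. The 1 h call of RRP5 held whichever library was left out, and that of UTP10 did not. With total counts 0 of 6 UtpA genes and 1 of the 2 genes that serve both subunits were called lower at 1 h, so the 1 h falls depended on the scaling. The footprint protocol differed between the times as well, and time and protocol cannot be told apart.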

How the results depend on the processing

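With 2 libraries a group, many calls turned on 1 library. Leaving out 1 library at a time gave a range of called members and of their median. For RNA at 1 h these were 6 to 9 higher, 0 to 4 lower and a median of 0.0051 to 0.16. For footprints at 1 h these were 4 to 12 higher, 5 to 9 lower and a median of 0.023 to 0.10. For TE at 1 h these were 1 to 6 higher, 2 to 11 lower and a median of -0.12 to -0.017. For RNA at 8 h these were 0 to 2 higher, 0 to 4 lower and a median of -0.085 to -0.014. For footprints at 8 h these were 6 to 21 higher, 0 to 2 lower and a median of 0.19 to 0.38. For TE at 8 h these were 0 to 18 higher, 0 to 1 lower and a median of 0.32 to 0.45. For the RNA difference between the times these were 0 higher, 0 lower and a median of -0.19 to -0.063. For the footprint difference between the times these were 8 to 17 higher, 0 to 2 lower and a median of 0.13 to 0.31. The spread of a group down to 1 library was taken from the other groups. The first DMSO footprint library of 8 h, with 7934 counts over the members, limits what can be seen in short genes.

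DESeq2 called 3 higher and 4 lower footprints at 1 h, 15 higher at 8 h, 1 higher RNA at 8 h and 1 lower TE at 8 h. DESeq2 size factors and no filter on low counts each left 1 higher RNA at 8 h, and no filter gave 2 lower footprints at 8 h. Total counts gave 41 higher and 0 lower RNA at 1 h (median 0.29), 32 higher and 2 lower footprints at 1 h (median 0.21), 2 lower RNA at 8 h, 42 higher and 0 lower footprints at 8 h (median 0.54), 20 higher in the footprint difference between the times and a median RNA difference of -0.31, where all features had a median of -0.18. With the replicate number as a block, 24 were higher and 12 lower in RNA at 1 h, 7 higher in TE at 1 h, 1 higher in RNA at 8 h, 2 lower in footprints at 8 h and 1 lower in TE at 8 h. The labels give the numbers no shared culture or day, and the main fits took no pairs. Deviations of same-numbered libraries correlated at 0.628 in RNA at 1 h. They varied together there, and the 1 h RNA counts depend on this choice. The correlations were -0.0785 in RNA at 8 h, and 0.0936 (1 h) and 0.0592 (8 h) in footprints. The cause of these changes was not tested, and the shares of all features called under these settings are not given here.

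The 88 fold changes of 27 named genes were followed through every setting, each setting giving 1 value per fold change. Of these values 34 changed sign, several of them from the same fold change under different settings. None of the fold changes behind these 34 values had passed the threshold. Outside these 88, the called fall of NOP56 footprints at 1 h turned to 0.032 with total counts. By total counts 17 of 65 genes were higher in both RNA and footprints at 1 h, against 0 with TMM. NOP1 in RNA at 1 h was 0.021 with total counts. NOP58 in RNA at 1 h was 0.18 with total counts and -0.17 to 0.081 with 1 library left out. RRP5 in RNA at 1 h was 0.20 with total counts and -0.10 to 0.058 with 1 library left out. NOP1 in footprints at 1 h was 0.061 with total counts. RRP6 in footprints at 1 h was 0.14 with total counts and -0.10 to 0.016 with 1 library left out. ENP1 in footprints at 1 h was -0.0041 to 0.35 with 1 library left out. NOP1 in TE at 1 h was -0.0081 with DESeq2 and -0.031 to 0.13 with 1 library left out. NOC2 in RNA at 8 h was -0.037 to 0.21 with 1 library left out. RRP5 in RNA at 8 h was -0.39 to 0.055 with 1 library left out. RRP6 in footprints at 8 h was -0.11 to 0.16 with 1 library left out. RRP6 in TE at 8 h was -0.24 to 0.022 with 1 library left out. UTP10 in the RNA difference between the times was -0.11 with total counts and -0.088 to 0.21 with 1 library left out. NOP1 in the RNA difference between the times was -0.17 to 0.094 with 1 library left out. RRP5 in the RNA difference between the times was -0.38 to 0.067 with 1 library left out. ENP1 in the footprint difference between the times was 0.035 with DESeq2 and 0.044 with total counts and -0.18 to 0.17 with 1 library left out. RRP6 in the footprint difference between the times was -0.056 to 0.21 with 1 library left out. With a library left out, 389 other values of these genes kept their direction and side of the threshold, 84 no longer passed and 6 newly passed. Under the other settings these numbers were 393, 23 and 15.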
